A study of Mus musculus with 9 samples.

Results

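The genes described here are 48 molecular chaperones and co-chaperones of the cytosol and the mitochondrion, with the heat shock transcription factor Hsf1. They were chosen by name with earlier results of these data known, as rows of a table of 30128 genes, and all 48 were found. They comprise Hsf1, 8 members of the HSP70 family, 3 of HSP110, 2 of HSP90, 6 co-chaperones of HSP90, 7 small heat shock proteins, 2 subunits of the mitochondrial chaperonin, 9 J-domain proteins, 3 genes for BAG proteins and the ubiquitin ligase CHIP, and 7 subunits of the cytosolic chaperonin CCT. The RNA came from left ventricular tissue of mice in 3 groups of 3 libraries. The control group was wild type, and its labels name no virus. The remaining groups were db/db, a genotype that lacks a working leptin receptor and leads to obesity and diabetes. One of them had received AAV9_null and is called the null virus group. The other had received AAV9_USP28, an adeno-associated virus of serotype 9 in which the cardiac troponin T promoter, active in cardiomyocytes, drives the deubiquitinase USP28, and it is called the USP28 virus group. No db/db group without virus and no wild-type group with virus was analysed here, so genotype and virus cannot be told apart in a comparison with the control group. The labels give no age and do not say that the libraries came from separate animals, so p-values measure the spread between libraries, which may be partly technical.

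Chaperones bind proteins that are not in their folded state and help them fold, assemble or be degraded. HSP70 takes up clients from J-domain proteins, HSP110 exchanges its nucleotide, and Stip1 hands clients on to HSP90, whose cycle is set by further co-chaperones. HSF1 is the factor that raises many of these genes after heat or protein damage. It binds repeats of the unit GAA and its reverse complement TTC, called heat shock elements. In the heart, small heat shock proteins such as Cryab are abundant and guard the sarcomere and its filaments, and Bag3 with Hspb8 directs damaged filament proteins to autophagy.

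The promoters were searched for heat shock elements because several members that fell, described further on, are textbook HSF1 targets. RefSeq windows on GRCm38.p6, from 250 bases before to 50 bases after a start, were at hand for 40 members in 54 windows. The search covered both strands and allowed matches to overlap. The longer motif has 3 units, GAANNTTCNNGAA or TTCNNGAANNTTC, and the shorter has 2, GAANNTTC or TTCNNGAA, so that every match of the longer motif also holds the shorter. The longer motif was found in 7 of the 54 windows (13%) and in 0.603% of the 32851 windows of all genes. The shorter motif was found in 22 of the 54 windows (40.7%) and in 15.1% of all windows. The 5 members with the longer motif were Hsph1, Chordc1, Hspd1, Hspe1 and Dnajb6. The sites of Hsph1 and Dnajb6 were each counted again in a window from another start, and Hspd1 and Hspe1 share a site. The counts of windows are thus not counts of separate sites. These 4 sites are shown as the closest matches to the element, 5′ to 3′ on the strand of the gene, with the matched bases in capitals:
Hsph1: cagaTTCTGGAAAGTTCtcct
Chordc1: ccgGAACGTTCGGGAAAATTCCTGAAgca
Hspd1: ggccTTCCGGAAGGTTCTAGAAcgga
Dnajb6: ccgaGAATCTTCCGGAAcgct

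The site of Hsph1 lies at chr5:149636284-149636304 on the minus strand, 12 to 32 bases into the transcript from one of its starts. Chordc1 has a run of overlapping units across its start, at chr9:18292260-18292288 on the plus strand. The site of Hspd1, at chr1:55088055-55088080 on the minus strand, spans positions −148 to −123 from its start. Hspe1 starts beside Hspd1 and is read in the opposite direction, so the site counted for Hspe1 is the same one. Dnajb6 has its site at chr5:29735848-29735868 on the plus strand. Cdc37, Hspb1, Hspb3, Hspb6, Hspb8, Dnaja1, Bag3, Stub1, Cct2 and Cct5 had the shorter motif alone. None of them passed as lower with null virus, and their sites are not shown. The other members with the shorter motif alone were Fkbp4, Dnaja4, Dnajb4 and the neighbouring pair Hspa1a and Hspa1b. Their sites are shown so that members that fell can be set beside heat-inducible members that did not pass the test:
Fkbp4: tctaGAAAGTTCtccg
Dnaja4: ccgcGAACGTTCtggg
Dnajb4: gctgTTCTAGAAagta
Hspa1a: gctgGAAGATTCctgg
Hspa1b: gctgGAAGATTCctgg

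The last 2 sites are identical, at chr17:34972249-34972264 and chr17:34959331-34959346 on the minus strand. The other 3 lie at chr6:128438796-128438811 on the minus strand, chr9:54699465-54699480 on the plus strand and chr3:152193848-152193863 on the minus strand. Of the 10 members that had a window and fell in the null virus group, 3 had the longer motif and 6 the shorter. Of the 30 other members with a window, 2 had the longer and 14 the shorter. A match describes these letters only. No window was at hand for Cct4, Cryab, Hsp90ab1, Hspa8, Hsf1, Hspa9, Hspb2 and Hsp90aa1.

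Expression was read as RPKM, reads divided by gene length and by the reads of the library. RPKM divided by a scaling factor per library is called scaled RPKM here. Reads recovered from the table came to between 35970332 and 56497662 per library, and mitochondrially encoded genes held 15.7% to 19.9% of them. Usp28 itself was at 13.2 ± 0.658 scaled RPKM in control, 8.46 ± 1.36 in the null virus group and 10.8 ± 0.810 in the USP28 virus group (mean ± SD, n = 3). Against control its log2 difference was −0.65 with null virus (SE 0.12, limma, adjusted p = 0.0081). With USP28 virus it was −0.295 (adjusted p = 0.15). Its log2 difference between USP28 virus and null virus was 0.35 (SE 0.12, limma, adjusted p = 0.21), so the label of the USP28 virus group was not borne out by a test. Whether reads of the viral transgene enter this value is not stated in the labels. Null virus replicate 1 stood apart, with a mean absolute departure from its group mean of 0.334 on the log2 scale over all genes tested, against 0.144 to 0.214 in the other 8 libraries. Of the marker genes, cardiomyocyte markers were by far the highest in sum. Their summed level was 38880 to 43499 in control, 33574 to 50665 in the null virus group and 35338 to 40563 in the USP28 virus group, and the summed level of adipocyte markers was at most 0.331 in any library. In tissue of mixed cells, fewer cells of a type and less RNA per cell cannot be told apart.

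The chaperones differ widely in abundance. Per length, Hsp90ab1, the constitutive cytosolic HSP90, had the highest mean over all 9 libraries at 1003 scaled RPKM. Hspb7, a small heat shock protein of the heart, followed at 865 and Hspa8, the constitutive HSP70, at 506. Next came Cryab at 419, Hspa9, the mitochondrial HSP70, at 404, and Hspd1 at 150. These 6 genes held 70.1% ± 0.607 of the members' summed level in the control group, 72.7% ± 0.329 in the null virus group and 72.2% ± 0.653 in the USP28 virus group (mean ± SD, n = 3). Of the stress-inducible genes, Hsp90aa1 was at 88.7 and Hsph1 at 13.4, and Hspa1b at 3.5 and Dnajb1 at 3.01 were far lower. The summed level of all members was 5184 ± 290 scaled RPKM in control and 4526 ± 698 with null virus, with overlapping ranges of 4881 to 5459 and 4071 to 5329. The order of levels depended on the gene length used. Per length of the principal transcript in GENCODE M21, Hspa8 was above Hspb7 in control (871 against 842) and with null virus (998 against 849). With USP28 virus it was below (857 against 905). Fkbp4 was then above Hspd1 in control (207 against 200) and below it in both db/db groups.

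Between the null virus group and control, which differ by the db/db genotype and the virus, the members that fell furthest among those past the test were Hsph1, at 22.2% of its control mean, Hsp90aa1 at 41.6%, Stip1 at 43.9%, Hspa4l at 45.1%, Chordc1 at 46.3% and Fkbp4 at 50.2%. These are genes of HSP110, HSP90 and its co-chaperones, and Hspa4, Hsp90ab1, Ahsa1, Cdc37 and Ptges3 of the same roles did not pass. Of the 48 members, 12 passed the test (25%), beside 22.4% of all 14104 genes tested. The direction was uneven: 11 members fell (22.9%, beside 12.2% of all genes) and 1 rose (2.08%, beside 10.2%). The members were listed with earlier results of these data known, so their shares in each comparison are description and no test. The median log2 difference of the members was −0.23, and that of all genes was 0.01. In 17 members (35.4%, beside 21.7% of all genes) every null virus library was below every control library, and in 7 (14.6%, beside 19.5%) every one was above. All 48 members passed the filter on low values, so none is missing from these counts. The test was limma on log2(scaled RPKM + 0.1) with Benjamini-Hochberg adjustment over all genes. Without null virus replicate 1 the count was 24 members (21 lower and 3 higher), beside 31.6% of all genes, and leaving out any other single library gave 8 to 12.

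**Figure D1:**
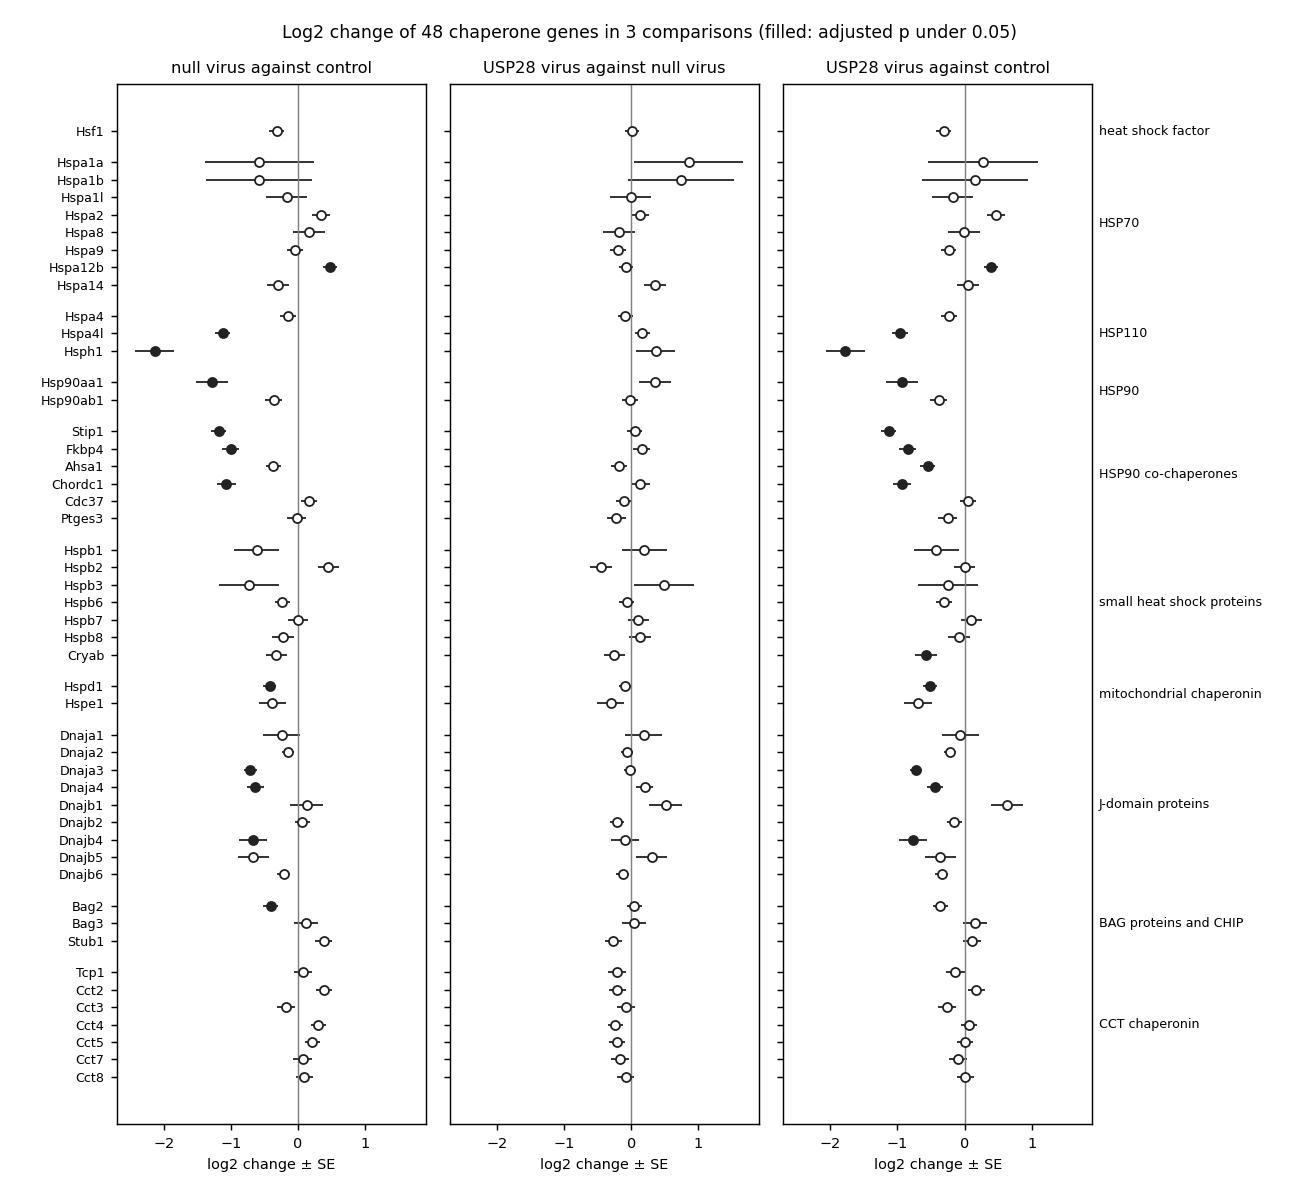
Log2 change ± SE of each of the 48 genes, ordered by role, in the 3 comparisons, with filled points at an adjusted p under 0.05. The filled points of both comparisons with control lie to the left of 0 apart from Hspa12b, and the middle panel has none; Hspa1a and Hspa1b have the widest error bars.

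HSP110 proteins are relatives of HSP70 that act as its nucleotide exchange factors. Hsph1 (chr5:149614287-149636376), an inducible member, was at 33.2, 20.1 and 26.3 scaled RPKM in control replicates 1, 2 and 3. It was at 7.04, 4.86 and 5.77 in the null virus libraries and at 6.49, 5.53 and 11.8 in the USP28 virus libraries. The lowest control library was above every db/db library, and the highest db/db library was USP28 virus replicate 3. With null virus Hsph1 fell by 2.14 (log2 scale, SE 0.29, adjusted p = 0.0022), and with USP28 virus by 1.78 (adjusted p = 0.009). Hspa4l (chr3:40744495-40796103) was at 6.20, 5.92 and 6.40 in control, at 2.69, 2.56 and 3.10 with null virus and at 2.77, 3.22 and 3.41 with USP28 virus. Its libraries varied by at most 1.23-fold within a group, and the control group did not overlap the others. The fall was 1.12 (SE 0.11, adjusted p = 0.00093) with null virus and 0.96 (adjusted p = 0.0034) with USP28 virus. Hspa4, the third HSP110 gene, did not pass the test, with log2 differences from control of −0.15 and −0.24, although without null virus replicate 1 they were −0.27 and −0.24 and passed (adjusted p = 0.019 for both).

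HSP90 is made from 2 cytosolic genes, of which Hsp90aa1 is the inducible one. Hsp90aa1 (chr12:110690605-110702728) was at 136, 108 and 168 scaled RPKM in control, at 76.1, 42.4 and 52.8 with null virus, and at 70.7, 59.5 and 84.2 with USP28 virus. The spread within groups was wide, 1.55-fold in control and 1.80-fold with null virus, yet the control libraries were above all others. It fell by 1.29 on the log2 scale with null virus (SE 0.24, adjusted p = 0.0079) and by 0.93 with USP28 virus (adjusted p = 0.039). The second of these calls was lost on leaving out any 1 of 7 libraries, with adjusted p from 0.052 to 0.14: each control library, each USP28 virus library or null virus replicate 3. Hsp90ab1, the constitutive gene, was at 1249, 1062 and 1245 in control, at 907, 920.3 and 924 with null virus, and at 868, 843 and 1012 with USP28 virus. Here too no db/db library reached the control range, but the log2 differences of −0.37 and −0.39 did not pass (SE 0.12, adjusted p = 0.061 and 0.073). Without null virus replicate 1 they were −0.35 and −0.39 and passed (adjusted p = 0.034 and 0.017). The share of Hsp90aa1 in the summed level of both genes, a ratio within each library that no scaling can move, was 9.26% to 11.9% in control. It was 4.4% to 7.74% with null virus and 6.60% to 7.68% with USP28 virus, so the inducible gene had the smaller share in each db/db library.

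Of the co-chaperones of HSP90, 3 of 6 fell with null virus (beside 12.2% of all genes) and 4 of 6 with USP28 virus (beside 6.53%). Stip1 (chr19:7020696-7040026), the adaptor that joins HSP70 to HSP90, was at 76.5, 65.5 and 76.5 scaled RPKM in control. With null virus it was at 35.2, 30.8 and 29.97, and with USP28 virus at 31.6, 31.1 and 36.7. The lowest control library was thus well above the highest db/db library. The fall was 1.18 on the log2 scale (SE 0.11, adjusted p = 0.00078) with null virus and 1.13 (adjusted p = 0.0022) with USP28 virus. Fkbp4 (chr6:128429735-128438677) encodes the immunophilin FKBP52 of steroid receptor complexes, and it was at 169, 158 and 167 in control, 94.2, 78.7 and 74.5 with null virus, and 87.9, 83.0 and 105 with USP28 virus. It fell by 1.0 (SE 0.13, adjusted p = 0.0017) and by 0.84 (adjusted p = 0.0068).

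Chordc1 (chr9:18292125-18317442), a zinc-binding HSP90 partner also called morgana, had lower levels. Its levels were 3.74, 3.80 and 4.50 scaled RPKM in control, 1.66, 1.83 and 2.08 with null virus, and 1.80, 1.98 and 2.39 with USP28 virus. The groups with and without the db/db genotype did not overlap. The fall was 1.07 (SE 0.14, adjusted p = 0.0019) with null virus and 0.93 (adjusted p = 0.0067) with USP28 virus. Ahsa1, which activates the HSP90 ATPase, was at 80.1, 72.4 and 79.5 in control, 68.9, 54.7 and 56.8 with null virus and 52.3, 48.6 and 57.5 with USP28 virus. It fell with USP28 virus alone among the tests with control, by 0.55 (SE 0.12, adjusted p = 0.021). With null virus the value was −0.37 (adjusted p = 0.054), or −0.47 without replicate 1 (adjusted p = 0.0048), and between the db/db groups it was −0.18 (adjusted p = 0.44). The USP28 virus call was lost without any 1 of the control libraries, USP28 virus replicate 1 or USP28 virus replicate 2, with adjusted p from 0.06 to 0.089. Cdc37, the kinase adaptor, and Ptges3, the p23 protein, did not pass in any comparison, with log2 differences between −0.25 and 0.16.

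**Figure D2:**
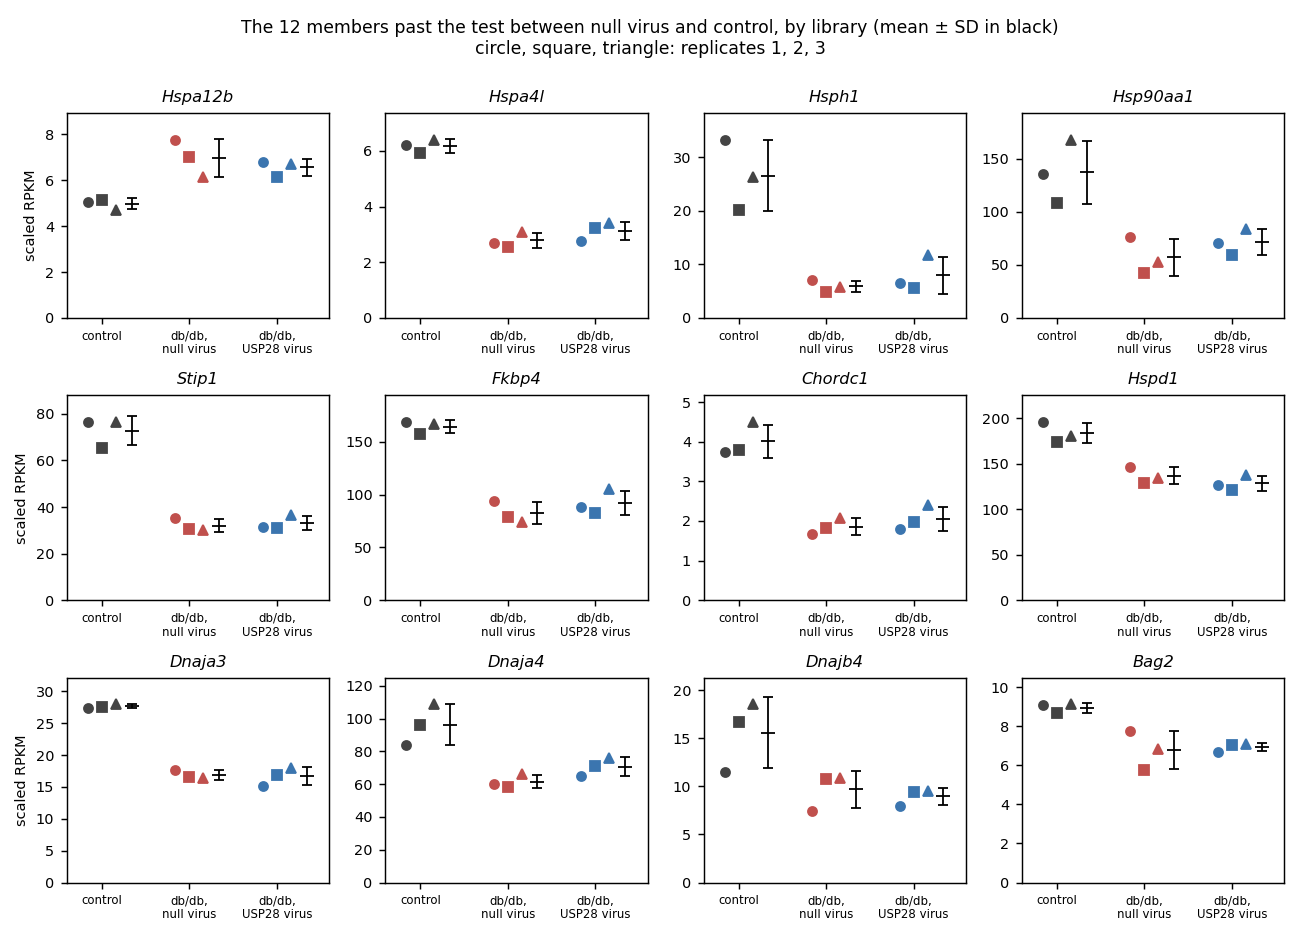
Scaled RPKM of the 12 genes past the test between null virus and control, in each of the 9 libraries, with the mean ± SD of each group in black. In every gene other than Hspa12b the control libraries lie above every library of both db/db groups, and Hspa12b shows the opposite order.

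J-domain proteins deliver clients to HSP70 and start its ATPase, and 3 of 9 fell in each comparison with control, beside 12.2% of all genes with null virus and 6.53% with USP28 virus. Dnaja3 (chr16:4639989-4707695), which works in the mitochondrion, was at 27.4, 27.6 and 28.0 scaled RPKM in control. It was at 17.7, 16.5 and 16.4 with null virus and at 15.2, 16.9 and 17.99 with USP28 virus. Among the members that passed it had the narrowest control spread, and its fall was 0.71 (SE 0.09, adjusted p = 0.0017) with null virus and 0.73 (adjusted p = 0.0037) with USP28 virus. Dnaja4 (chr9:54698873-54716315), a cytosolic member abundant in heart, was at 83.9, 96.1 and 109 in control, 60.0, 58.5 and 66.4 with null virus, and 64.7, 71.2 and 76.1 with USP28 virus. It fell by 0.64 (SE 0.12, adjusted p = 0.0083) and by 0.44 (adjusted p = 0.048). The USP28 virus call of Dnaja4 was lost in 10 of 20 alternatives, among them each left-out library other than control replicate 1 and null virus replicate 1 (adjusted p from 0.055 to 0.18). Of the exonic bases of Dnaja4, 44.1% lie under exons of Wdr61 on the other strand. The libraries were directional, but no source used here says whether the counting used strand. Wdr61 was at 2.47 in control and 2.32 with null virus (log2 difference −0.10, adjusted p = 0.62).

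Dnajb4 (chr3:152178511-152210302) was at 11.5, 16.7 and 18.5 scaled RPKM in control, at 7.41, 10.8 and 10.8 with null virus and at 7.97, 9.42 and 9.5 with USP28 virus. Its control libraries ranged over 1.62-fold and control replicate 1 was close to the db/db range. It fell by 0.67 (SE 0.21, adjusted p = 0.047) and by 0.77 (adjusted p = 0.045), and each call was lost on leaving out any 1 of 7 libraries. The exceptions were control replicate 1 and null virus replicate 3 for the first call, and control replicate 1 and null virus replicate 1 for the second, and the adjusted p was otherwise 0.059 to 0.15 and 0.052 to 0.16. Dnajb1, the inducible partner of HSP70, was the highest of the 9 against control with USP28 virus, at a log2 difference of 0.63 that did not pass (SE 0.24, adjusted p = 0.12). Its levels were 1.99, 2.17 and 3.27 in control, 3.17, 2.01 and 2.90 with null virus and 3.58, 3.18 and 4.86 with USP28 virus. Dnajb1 was the only member in which all USP28 virus libraries were above all null virus libraries, a pattern that 11.4% of all genes had. Dnaja1, Dnaja2, Dnajb2, Dnajb5 and Dnajb6 did not pass in any comparison. Dnajb5 came nearest with null virus, at −0.67 (adjusted p = 0.066), or −0.88 without replicate 1 of that group (adjusted p = 0.014), and Dnajb6 with USP28 virus, at −0.34 (adjusted p = 0.053).

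The mitochondrial chaperonin is a folding chamber of Hspd1 (HSP60) closed by a lid of Hspe1 (HSP10). Hspd1 (chr1:55077835-55088243) was at 196, 174 and 181 scaled RPKM in control, 147, 129 and 135 with null virus, and 127, 122 and 137 with USP28 virus. No db/db library reached the control range. Hspd1 fell by 0.42 (SE 0.10, adjusted p = 0.021) with null virus and by 0.51 (adjusted p = 0.017) with USP28 virus. The first call was lost without any 1 control library or null virus replicate 2 (adjusted p 0.053 to 0.071), and the second without any 1 control library or USP28 virus replicate 1 or 2 (0.056 to 0.081).

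Hspe1 (chr1:55088132-55091307), whose start overlaps that of Hspd1 by 112 bases on the other strand, was at 94.7, 78.6 and 90.3 in control and at 51.2, 51.2 and 60.5 with USP28 virus. With null virus it was at 95.3, 56.6 and 55.6, so that replicate 1 was just above the highest control library and the others were below the lowest. The log2 differences of Hspe1 from control were −0.39 (SE 0.20, adjusted p = 0.2) and −0.69 (adjusted p = 0.059), neither past the test. Without null virus replicate 1 they were −0.64 (adjusted p = 0.0031) and −0.70 (adjusted p = 0.0018). The ratio of Hspd1 to Hspe1 was 2.01 to 2.21 in control, 2.27 to 2.48 with USP28 virus, and 1.54 to 2.42 with null virus, where 1.54 is replicate 1. Hspa9, the mitochondrial HSP70, did not pass in any comparison, with log2 differences of −0.04, −0.20 and −0.24.

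**Figure D3:**
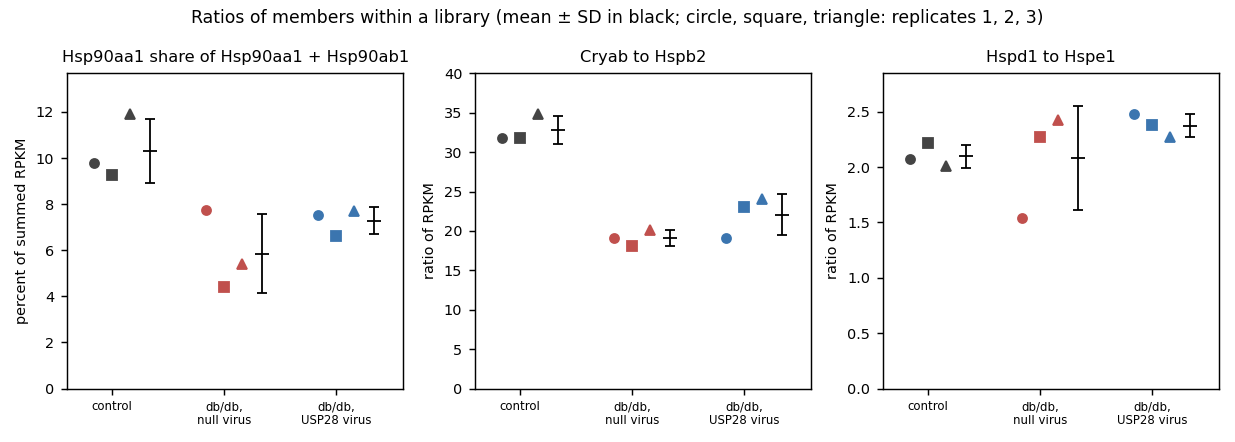
Ratios within each library by group, with the mean ± SD in black: the percent of Hsp90aa1 in the summed RPKM of both HSP90 genes, Cryab to Hspb2, and Hspd1 to Hspe1. The first is 9.26% to 11.9% in control and at most 7.74% in db/db hearts, the second is 31.8 to 34.8 in control and at most 24.1 in db/db hearts, and the third is lowest in null virus replicate 1.

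Among the 8 HSP70 genes, 1 rose in each comparison with control, beside 10.2% of all genes with null virus and 5.32% with USP28 virus. Hspa12b (chr2:131127280-131146321), a distant relative known to be expressed in endothelial cells, was at 5.08, 5.15 and 4.72 scaled RPKM in control. It was at 7.77, 7.01 and 6.15 with null virus and at 6.82, 6.13 and 6.73 with USP28 virus, above control in every db/db library. It rose by 0.47 (SE 0.11, adjusted p = 0.016) and by 0.39 (adjusted p = 0.046). The first call was lost without control replicate 3 (adjusted p = 0.066). The second was lost without any 1 of the control or USP28 virus libraries or null virus replicate 2 (0.065 to 0.16). Endothelial markers were higher beside it: 4 of 8 rose with null virus (beside 10.2% of all genes) and 3 of 8 with USP28 virus (beside 5.32%), and none fell. Their summed level was 149 to 173 in control, 292 to 391 with null virus and 242 to 277 with USP28 virus, and the part of these cells in the rise of Hspa12b was not tested.

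The inducible pair Hspa1a and Hspa1b, which encode nearly identical proteins, had no call and varied widely within the control and USP28 virus groups. Hspa1a was at 0.735, 1.43 and 8.52 scaled RPKM in control, 1.82, 0.997 and 1.45 with null virus, and 2.25, 1.30 and 5.81 with USP28 virus. Hspa1b was at 0.990, 2.51 and 9.69, then 1.88, 1.52 and 2.48, then 2.98, 1.43 and 8.04. Both were highest in control replicate 3, next highest in USP28 virus replicate 3 and lowest in control replicate 1. The spread in control was 11.6-fold for Hspa1a. The log2 differences were −0.58 and −0.58 with null virus against control (SE 0.81 and 0.79, adjusted p = 0.63 and 0.62), and 0.86 and 0.74 between USP28 virus and null virus (adjusted p = 0.61 and 0.65). Since reads of copies may be divided arbitrarily, the sum was tested too. It was 7.96 ± 8.95 for the control group, 3.38 ± 0.759 for the null virus group and 7.27 ± 5.83 for the USP28 virus group (mean ± SD, n = 3). The exact two-sided permutation p was 0.7, 0.3 and 0.9 for the 3 comparisons, where the smallest possible is 0.1. Without control replicate 3 the sum was 0.554 scaled RPKM higher with null virus than in control. Hspa1a shares 19% of its exonic bases with Gm20481 and Hspa1l 71.9% with Gm10501, both on the other strand. For null virus against control the log2 difference was −0.85 for Gm20481 beside −0.58 for Hspa1a, and −0.16 for Gm10501 beside −0.17 for Hspa1l. From null virus to USP28 virus these values were 0.84 beside 0.86, and −0.010 beside −0.0064. Set against control, the USP28 virus group had −0.0086 beside 0.27, and −0.17 beside −0.18. None of these differences passed the test. Whether reads of either gene entered the value of its partner was not tested.

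**Figure D4:**
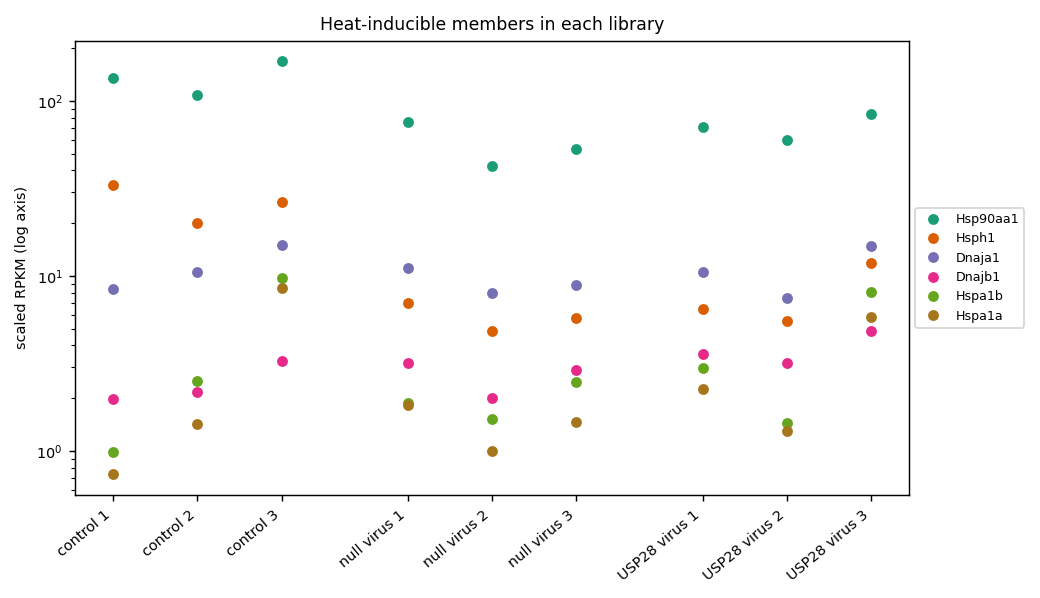
Scaled RPKM, on a log axis, of 6 heat-inducible genes in each library. Hspa1a and Hspa1b reach their highest values in control replicate 3 and USP28 virus replicate 3, while Hsp90aa1 and Hsph1 are higher in every control library than in any db/db library.

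The constitutive Hspa8 was at 398, 460 and 597 scaled RPKM in control, 771, 452 and 443 with null virus, and 479, 417 and 535 with USP28 virus. The groups overlapped, with null virus replicate 1 the highest of all 9, and the log2 differences from control were 0.17 (SE 0.24, adjusted p = 0.64) and −0.01 (adjusted p = 0.98). Hspa2 was at 1.76, 1.48 and 1.96 in control, 2.24, 2.05 and 2.35 with null virus and 2.40, 2.75 and 2.16 with USP28 virus. Every db/db library was above control, but the differences of 0.34 and 0.47 did not pass (adjusted p = 0.1 and 0.057). Hspa1l and Hspa14 did not pass in any comparison. The factor Hsf1 was at 4.72, 4.41 and 5.44 in control, 3.63, 3.90 and 4.04 with null virus and 3.53, 4.07 and 4.07 with USP28 virus. No db/db library of Hsf1 reached control, yet the differences of −0.32 and −0.31 did not pass (SE 0.11, adjusted p = 0.066 and 0.1).

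Of the 7 small heat shock proteins, none passed between null virus and control, where 1 had an unadjusted p under 0.05. Cryab fell with USP28 virus. Cryab (chr9:50751325-50756636) was at 506, 497 and 516 scaled RPKM in control, 525, 344 and 366 with null virus, and 336, 322 and 362 with USP28 virus. Null virus replicate 1 was just above the highest control library, and the other 5 db/db libraries were below the lowest. The fall with USP28 virus was 0.58 (SE 0.16, adjusted p = 0.05, just under the threshold), and the call was lost in 11 of 20 alternatives, among them each left-out library other than null virus replicates 1 and 2 (adjusted p from 0.057 to 0.16). With null virus the value was −0.33 (adjusted p = 0.17), and it was −0.51 (adjusted p = 0.0016) without replicate 1. Hspb2, which is read in the opposite direction beside Cryab and shares 252 exonic bases with it on the other strand, was at 15.9, 15.7 and 14.8 in control and 27.5, 18.9 and 18.2 with null virus. With USP28 virus it was at 17.5, 14.0 and 15.04. Its log2 differences were 0.45 (adjusted p = 0.073) and −0.00 (adjusted p = 1) against control. The ratio of Cryab to Hspb2, chosen after the values were seen, was 31.8 to 34.8 in control, 18.2 to 20.1 with null virus and 19.1 to 24.1 with USP28 virus. The ratio was thus lower in each db/db library than in control. In null virus replicate 1 Cryab itself was above control, and Hspb2 was at its highest value, 27.5. The shared bases are 30.2% of the exonic bases of Hspb2, and whether reads of Cryab entered its value was not tested.

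Hspb1 was at 45.9, 43.8 and 61.6 scaled RPKM in control, 59.3, 20.3 and 28.2 with null virus, and 38.0, 34.1 and 39.7 with USP28 virus. The null virus libraries spanned a 2.92-fold range with replicate 1 at its top, and the difference from control of −0.62 did not pass (SE 0.33, adjusted p = 0.21). Hspb3, a muscle member, showed the same order in a wider form, at 7.48, 1.60 and 2.59 with null virus, against 4.47 to 5.96 in control and 4.23 to 4.70 with USP28 virus. Hspb8, the partner of Bag3, was at 76.9, 49.9 and 49.5 with null virus, against 64.1 to 71.0 in control and 62.3 to 64.2 with USP28 virus. For Hspb3 and Hspb8 the null virus group thus held both the highest and the lowest library of the 9. Without null virus replicate 1, Hspb1, Hspb3, Hspb6, Hspb8 and Cryab all passed as lower in the null virus group than in control. Their log2 differences were then −1.05, −1.34, −0.33, −0.43 and −0.51, with adjusted p = 0.0042, 0.0021, 0.013, 0.0018 and 0.0016. Hspb7, the most abundant small heat shock protein, was at 890.4, 819 and 816 in control, 1041, 730 and 778 with null virus, and 970.4, 839.9 and 903 with USP28 virus, with no call.

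The cytosolic chaperonin CCT folds actin and tubulin in a double ring of related subunits. Cct6a, a subunit that is not among the members, fell with null virus and is given with the lists below. None of the 7 subunits among the members passed in any comparison. At an unadjusted p under 0.05 the counts were 2, 0 and 0, in the order null virus against control, USP28 virus against null virus, and USP28 virus against control. Cct2 and Cct4 came nearest with null virus, at 0.39 (adjusted p = 0.054) and 0.30 (adjusted p = 0.092). Tcp1, Cct2, Cct3, Cct4, Cct5, Cct7 and Cct8 were each highest in null virus replicate 1 among all libraries. Without that library Cct2 passed as higher with null virus, by 0.27 (adjusted p = 0.035), and Cct3 as lower, by −0.33 (adjusted p = 0.018), so 2 subunits passed in opposite directions. Between USP28 virus and null virus all 7 had differences below 0, from −0.24 to −0.08, but without null virus replicate 1 Cct3 was at 0.061 and Cct8 at 0.057, and the other 5 lay between −0.15 and −0.024. The summed level was 159 ± 7.29 with USP28 virus, 184 ± 32.1 with null virus and 159.6 ± 6.78 in control (mean ± SD, n = 3). Although the subunits share one complex, their control means per length differed by 7.94-fold, from 5.31 for Cct4 to 42.2 for Cct2. Per length of the principal transcript in GENCODE M21 the fold was 9.07, from 8.98 for Cct4 to 81.5 for Tcp1. The gene length behind RPKM was over 2 times that of the principal transcript for Cct3, Cct7 and Tcp1, and 1.69 times for Cct4.

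**Figure D5:**
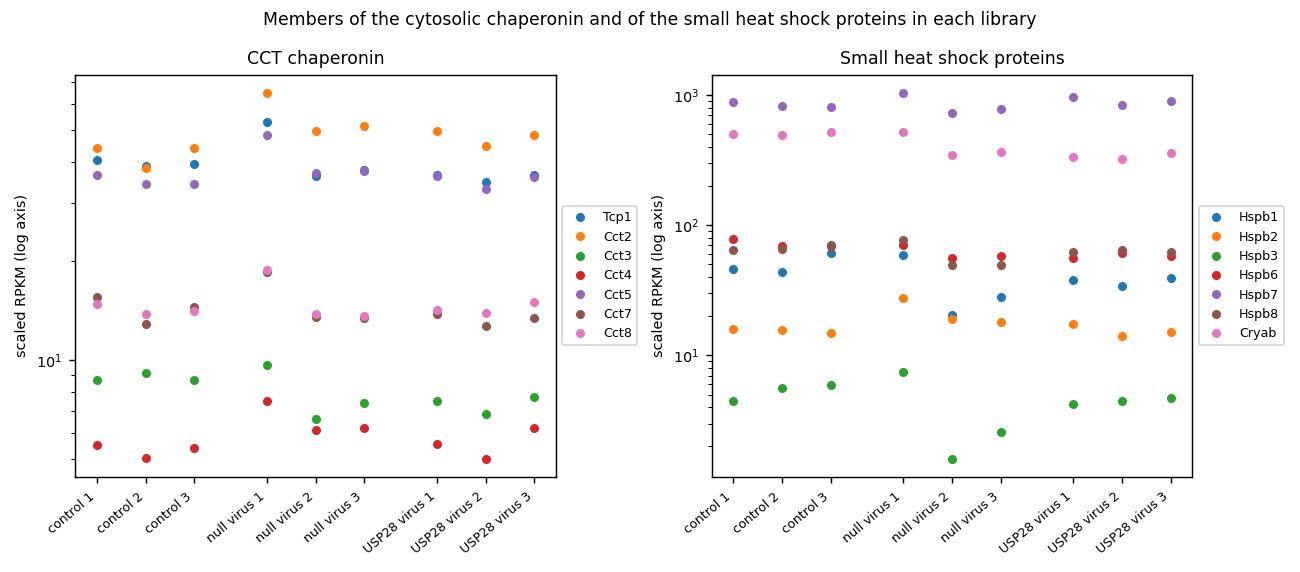
Scaled RPKM, on log axes, of 7 CCT subunits and 7 small heat shock proteins in each library. Every CCT subunit shown is highest in null virus replicate 1, and Hspb1 and Hspb3 are lowest in null virus replicates 2 and 3.

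BAG proteins release the nucleotide of HSP70, and CHIP, encoded by Stub1, marks its clients with ubiquitin. Bag2, an inhibitor of CHIP, was at 9.06, 8.66 and 9.12 scaled RPKM in control, 7.73, 5.76 and 6.83 with null virus, and 6.68, 7.05 and 7.07 with USP28 virus. It fell with null virus by 0.41 (SE 0.11, adjusted p = 0.033), and the call was lost without any 1 library other than null virus replicate 1, at adjusted p from 0.05 to 0.1. With USP28 virus the value was −0.36 (adjusted p = 0.067). Bag3 was at 74.7, 87.0 and 109 in control, 120, 81.0 and 92.6 with null virus, and 98.5, 94.2 and 106 with USP28 virus, so that the groups overlapped. Its log2 differences from control were 0.11 (SE 0.18, adjusted p = 0.67) and 0.16 (adjusted p = 0.6). Stub1 was at 71.5, 69.1 and 72.7 in control and at 114, 83.4 and 82.9 with null virus, a difference of 0.38 that did not pass (adjusted p = 0.066). Without null virus replicate 1 it was 0.23 and passed (adjusted p = 0.015). Of its exonic bases 41% lie under Jmjd8 on the other strand, which had a like difference of 0.43 (adjusted p = 0.062).

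Between USP28 virus and null virus, the comparison that addresses the effect of the USP28 vector in db/db hearts, none of the 48 members passed, beside 0.425% of all genes (0.269% higher and 0.156% lower). Higher genes were 63.3% of those calls, or 87.1% with library totals as the only scaling. At an unadjusted p under 0.05 there was 1 member, and limma voom on the recovered reads also called 0 at its adjusted threshold. The median difference of the members was −0.04. In 1 member (2.08%, beside 11.4% of all genes) the USP28 virus libraries were all above the null virus libraries, and in 3 (6.25%, beside 11.8%) they were all below. The members that had fallen with null virus had these values with USP28 virus against null virus: Hsph1 0.36 (SE 0.29), Hsp90aa1 0.35 (SE 0.24), Dnaja4 0.20 (SE 0.12), Hspa4l 0.16 (SE 0.11), Fkbp4 0.16 (SE 0.13) and Chordc1 0.14 (SE 0.14). Stip1 was at 0.05 (SE 0.11), Bag2 at 0.04, Dnaja3 at −0.02, Hspd1 and Dnajb4 at −0.09, and no adjusted p of these 11 was under 0.43. Both comparisons use the null virus libraries, so these values stand side by side and are no test. Without null virus replicate 1, 2 members passed as higher with USP28 virus, beside 6.46% of all genes: Hspb3 by 1.08 (adjusted p = 0.02) and Hspb8 by 0.34 (adjusted p = 0.02).

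Between USP28 virus and control, which shares the control libraries with the first comparison, 13 members passed (27.1%, beside 11.8% of all genes). Of these 12 fell (25%, beside 6.53%) and 1 rose (2.08%, beside 5.32%), and the median difference was −0.24, with −0.00 for all genes. With library totals as the only scaling the members' calls were 11 lower and 1 higher, while the share of higher calls among all genes went from 44.9% to 66.4%. In 25 members (52.1%, beside 24.1% of all genes) the USP28 virus libraries were all below control, and in 4 (8.33%, beside 21.4%) they were all above. The 10 genes lower in both comparisons with control were Hspa4l, Hsph1, Hsp90aa1, Stip1, Fkbp4, Chordc1, Hspd1, Dnaja3, Dnaja4 and Dnajb4. Bag2 passed only with null virus, and Ahsa1 and Cryab only with USP28 virus, while the differences between the db/db groups for these 3 did not pass (adjusted p = 0.87, 0.44 and 0.44). The mean of Hsph1 with USP28 virus was 29.9% of control, that of Hsp90aa1 52% and that of Stip1 45.5%. Leaving out any single library gave 6 to 25 calls, with 25 without null virus replicate 1, beside 29.1% of all genes. The 12 members gained without that library were Hsf1, Hspa2, Hspa9, Hspa4, Hsp90ab1, Ptges3, Hspb6, Hspe1, Dnaja2, Dnajb6, Bag2 and Cct3, of which Hspa2 was higher, by 0.47 (adjusted p = 0.031), and the others lower. The count was 6 without control replicate 2, control replicate 3, USP28 virus replicate 1 or USP28 virus replicate 2, and 8 without control replicate 1 or USP28 virus replicate 3.

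Within each group, many members shared the same highest library. Null virus replicate 1 was the highest of its group in 38 of 48 members, beside 42.4% of all genes, and USP28 virus replicate 3 was the highest in 34, beside 35.7%. Null virus replicates 2 and 3 were the highest in 1 and 9 members, beside 26.9% and 30.7% of all genes, and USP28 virus replicates 1 and 2 in 10 and 4, beside 32.9% and 31.4%. Control replicates 1, 2 and 3 were the highest of their group in 17, 2 and 29 members, beside 36.3%, 27.3% and 36.3% of all genes. Genes that share a library share its scaling factor, so these counts describe libraries and not independent genes. No label gives a day, litter or batch for the libraries.

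Genes around the members were counted in lists. Of all genes, 10.2% rose and 12.2% fell with null virus, and 5.32% rose and 6.53% fell with USP28 virus, and a list's count near these shares is no result about that list. Of 26 tested further co-chaperones of HSP70 and HSP90, 3 rose and 5 fell with null virus and 1 rose and 5 fell with USP28 virus against control. St13, which stabilises HSP70 with bound client, fell by 0.58 (adjusted p = 0.0045), and Unc45b, the myosin chaperone of muscle, fell by 0.66 (adjusted p = 0.0065), both with null virus. Unc45a of the same list rose by 0.59 with USP28 virus against control (adjusted p = 0.015). Of 22 further J-domain proteins 5 fell with null virus and 2 with USP28 virus, and Dnajc13 had a log2 difference of −0.79 with null virus (adjusted p = 0.0055). Of 25 genes of mitochondrial import, proteases and chaperones, 1 rose and 2 fell with null virus, and 4 fell with USP28 virus. Grpel2, an exchange factor of mitochondrial HSP70, fell by 0.95 (adjusted p = 0.0025) and by 0.69 (adjusted p = 0.015). Of the members in the same compartment, Hspd1 and Dnaja3 fell, while Hspa9 and Hspe1 did not pass. Of 15 prefoldins and CCT partners, 2 rose and 2 fell with null virus and none passed with USP28 virus. Cct6a, a CCT subunit on that list, fell by 0.50 (adjusted p = 0.0087) with null virus while its 7 partners above had no call.

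Of 19 chaperones of the endoplasmic reticulum, 2 rose and 2 fell with null virus and 2 fell with USP28 virus, where Sdf2l1 fell by 1.34 (adjusted p = 0.034) and by 1.95 (adjusted p = 0.015). Of 31 proteasome genes 4 rose with null virus and none with USP28 virus, and Psmd7 rose by 0.57 (adjusted p = 0.0041). Of 10 client and autophagy genes 2 rose and 4 fell with null virus and 1 fell with USP28 virus. Flnc, the sarcomeric filamin that Bag3 helps to turn over, fell by 0.78 (adjusted p = 0.003) and by 0.51 (adjusted p = 0.024). None of the 6 other heat shock factors and HSF1 regulators in the table passed against control. No gene of these 8 lists passed between USP28 virus and null virus. In the order of naming, the median log2 differences with null virus were 0.10, −0.07, 0.01, 0.26, −0.30, 0.25, −0.35 and 0.21, against 0.01 over all genes.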

How the data were processed

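Polyadenylated RNA of 9 left ventricles' libraries was sequenced, per the labels' protocols. The authors deposited a table of RPKM values with gene lengths, per the file headers. The submitters' processing notes name HISAT2, DESeq2 and the build GRCh38, although the symbols are those of mouse, and the spans of 41 of 48 members equal those of GENCODE M21 on GRCm38. The counting tool and its strand setting: not given in the sources used here. Of the values above 0, 99.98% were whole reads within 0.01 reads, which gave depths of 35970332 to 56497662 reads. A count of 3 reads, taken as the limit of detection, is 0.0531 to 0.0834 CPM, and covers counting error only.

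RPKM values were scaled by trimmed means of M values (30% of ratios and 5% of levels trimmed; factors 0.838 to 1.09). A gene was tested if 3 or more libraries had RPKM of 0.5 or more (14104 genes), and values entered as log2(scaled RPKM + 0.1), so fold changes of low genes are understated. The test was limma 3.58.1 (trended, robust prior; R 4.3.3) over all 9 libraries, with Benjamini-Hochberg adjustment within each of 3 comparisons at 0.05. The script was tested on simulated data. A summed pair of genes was tested by exact permutation in scipy 1.17.1. The count test that design notes allowed for a count table was not used. Members and lists were chosen with earlier results of these data known. Library values are given for members past the threshold in any comparison and for 10 fixed genes (Hsf1, Hspa1a, Hspa1b, Hspa8, Hsp90aa1, Hsp90ab1, Hspb1, Cryab, Bag3 and Hspd1); others were added after their values were seen. Up to 3 genes a list, those with the smallest adjusted p, were candidates for naming.

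The marker lists gave, as higher and lower of those tested, with null virus and then USP28 virus against control: cardiomyocyte 0 and 1, then 0 and 1, of 9; fibroblast 1 and 5, then 1 and 3, of 9; endothelial 4 and 0, then 3 and 0, of 8, beside 10.2% and 12.2%, then 5.32% and 6.53%, of all genes. For smooth muscle the counts were 0 and 0, then 2 and 0, of 7; for macrophage 0 and 3, then 0 and 1, of 8; for skeletal muscle 0 and 2, then 0 and 2, of 4. None passed of 5 erythroid, 3 atrial, 2 Schwann and 1 lymphocyte genes, and no adipocyte gene passed the filter. Between USP28 virus and null virus 1 fibroblast gene, Lum, was higher and no other marker passed. Alternatives were other scalings, filters and pseudocounts, a replicate block, limma voom on the recovered reads, the 2 groups compared alone, left-out genes and each library left out.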

Additional observations from a re-analysis of the deposited data

How the results depend on the processing

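Of the members' calls, 8 of 12 with null virus against control held under all 20 alternatives (Hspa4l, Hsph1, Hsp90aa1, Stip1, Fkbp4, Chordc1, Dnaja3 and Dnaja4), as did 6 of 13 with USP28 virus against control (Hspa4l, Hsph1, Stip1, Fkbp4, Chordc1 and Dnaja3), and no called member changed sign. Where a result moved and no reason is given, the cause was not tested. With USP28 virus against control the members' count was 8 with no filter on low values and 21 with the 2 groups compared alone. Leaving out each library in turn gave 8 to 24 members with null virus against control, 0 to 2 between the db/db groups and 6 to 25 with USP28 virus against control. The counts over all genes were then 1459 to 4424, 0 to 905 and 374 to 4081.

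Over all genes, null virus against control gave 3160 calls, but 2066 with no filter and 1690 with the 2 groups alone. Between USP28 virus and null virus the 60 calls became 31 with library totals alone, 10 with no filter, 190 with limma voom on recovered reads and 0 with the 2 groups alone. The 1671 calls between USP28 virus and control became 921 with library totals alone, 944 with no filter and 3809 with the 2 groups alone. The groups share the replicate numbers 1 to 3, and a fit with the replicate number as a block gave 14, 0 and 11 members and 2756, 0 and 1304 genes in all, in the order null virus against control, USP28 virus against null virus and USP28 virus against control. Deviations of same-numbered libraries, taken over all genes tested, correlated at −0.03 to 0.06 over 9 pairs. Such a correlation cannot exclude pairing that touches only some genes, so whether the numbers pair the libraries was not settled.

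Over all 48 members and 3 comparisons the sign changed 82 times, 63 with a library left out and 19 with another setting, in no value that was called. The values given here are those of the 21 genes past the test in any comparison or fixed for description, and of the Hspa1a and Hspa1b sum, with 35 changes. Between USP28 virus and null virus the log2 difference of Hsf1 was −0.0023 with median of ratios scaling and −0.0033 with voom. With library totals alone it was 0.0086 for Hspa12b, 0.072 for Hsp90ab1, 0.0038 for Hspd1 and 0.072 for Dnaja3, and 0.062 for Hspa8 with USP28 virus against control. With each library left out, null virus against control ranged over −1.29 to 0.40 for Hspa1a, −1.32 to 0.26 for Hspa1b, −0.091 to 0.33 for Hspa8 and −0.038 to 0.26 for Bag3. USP28 virus against null virus ranged over −0.039 to 0.076 for Hsf1, −0.32 to 0.076 for Hspa8, −0.11 to 0.031 for Hsp90ab1, −0.034 to 0.11 for Stip1, −0.14 to 0.62 for Hspb1, −0.085 to 0.047 for Dnaja3, −0.068 to 0.13 for Bag2 and −0.082 to 0.19 for Bag3. USP28 virus against control ranged over −0.43 to 1.25 for Hspa1a, −0.58 to 1.0 for Hspa1b and −0.14 to 0.15 for Hspa8. The summed level of Hspa1a and Hspa1b, added after seeing the data as were the levels per length of the principal transcript, differed by −7.69 to 0.554 scaled RPKM with null virus and −3.98 to 4.44 with USP28 virus against control. Depth did not limit the members, whose lowest count was 50 reads (Hspb3), above the floor of 3.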
